A study of Homo sapiens with 12 samples.

Results

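The genes of 10 amino acid transporters of the plasma membrane were followed by RNA-seq in spheroids of SBC3, an established line of human small cell lung cancer. They are SLC7A5, SLC3A2, SLC1A5, SLC38A1, SLC38A2, SLC1A4, SLC7A1, SLC7A6, SLC6A9 and SLC43A1. The members were taken by gene symbol, and 10 of the 60649 genes in each count table matched. All 10 passed the filter on low counts that left 16683 genes for testing. The series holds 12 libraries in 4 groups of 3. The control spheroids carry the treatment label Control. The other groups received Teriflunomide, the active metabolite of leflunomide and an inhibitor of the pyrimidine synthesis enzyme DHODH, Lurbinectedin, an alkylating agent that binds DNA and blocks transcription, or both drugs. All groups come from the same cell line. The labels give no dose, no exposure time and no treatment vehicle, and they do not say whether the replicates were separate cultures, so p-values measure the spread between these libraries, which may be technical.

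Cells take up amino acids through carriers that divide the work by substrate and by what drives the transport. SLC7A5 encodes LAT1, a light chain that exchanges glutamine and other intracellular amino acids for leucine and other large neutral amino acids, and it reaches the membrane only when bound to the heavy chain encoded by SLC3A2. Sodium-driven carriers such as ASCT2, the product of SLC1A5, and the SNAT carriers of the SLC38 family bring in glutamine. Leucine and arginine that enter in this way are sensed by mTORC1, and lack of amino acids raises translation of the transcription factor ATF4, which acts on many transporter genes through C/EBP-ATF response elements.

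Total counts per library ranged from 23206414 to 33222162, and the 10 transporter genes took 0.0697% to 0.172% of them. The third teriflunomide library and the second combination library stood apart, with 22.6% and 24.9% of counts from the mitochondrial genome, against 6.26% to 17% in the other 10 libraries. In the third teriflunomide library the transporters took the smallest share, 0.0697%, against 0.115% and 0.111% in the other teriflunomide libraries. Counts of calls that moved without these libraries are given with and without them below. Shares of all genes called were counted only for the reported settings with all 12 libraries. Counts without a library or under another setting have no such share beside them and are not read as a result about the members. The cells did not carry a full neuroendocrine profile: 6 of 9 neuroendocrine markers were under 1 CPM (counts scaled to a common library size) in control. Of these, 3, INSM1, NCAM1 and CALCA, were at 0 in all control libraries. The markers over 1 CPM in control were SYP at 16.8 ± 0.765, NEUROD1 at 4.03 ± 0.317 and DLL3 at 1.96 ± 0.142 CPM. Summed levels of the 9 were 22.2 to 23.6 CPM in control and 21.4 to 40.3 CPM over all libraries. Of other subtype markers, YAP1 was at 246 ± 12 CPM and POU2F3 at 0.15 ± 0.0839 CPM in control. Of epithelial markers, KRT8 was at 243 ± 8.03, KRT18 at 0.149 ± 0.0262 and EPCAM at 0.0111 ± 0.0193 CPM (SD, n = 3 each). Of 6 markers of fibroblasts, blood cells and endothelium, 4 were under 1 CPM in control, and the other 2, COL1A1 and COL1A2, were at 266 ± 6.6 and 270 ± 9.45 CPM (SD, n = 3). The summed level of these 6 ranged from 519 to 549 CPM in control and from 187 to 549 CPM over all libraries, and its part in the transporter results was not tested.

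Among the 10 members, SLC1A5, SLC7A5, SLC38A1 and SLC38A2, carriers of glutamine or of large neutral amino acids, had the most transcripts in control spheroids. SLC7A2, a cationic carrier outside these 10, was at 320 ± 13.8 CPM in control (SD, n = 3), and its TPM was not computed. Levels of different genes were compared as TPM, in which counts are divided by exon length and scaled to a common total within each library. SLC1A5 led with 267 ± 5.49 TPM, followed by SLC7A5 with 192 ± 5.18, SLC38A1 with 116 ± 2.71 and SLC38A2 with 110 ± 5.07 TPM (SD, n = 3 each). SLC7A1, which encodes the arginine and lysine carrier CAT1, had 92.8 ± 2.57 TPM. SLC7A6, which encodes y+LAT2, a light chain that exchanges arginine for glutamine, had 54.7 ± 0.464 TPM, and the shared heavy chain gene SLC3A2 had 50 ± 3.11 TPM. SLC1A4, which encodes the alanine and serine carrier ASCT1, had 9.96 ± 0.386 TPM, SLC43A1, which encodes the leucine carrier LAT3, had 8.74 ± 1.11 TPM, and SLC6A9, which encodes the glycine transporter GLYT1, had 4.33 ± 0.593 TPM. No pair of neighbours in this order overlapped in the control libraries. With lurbinectedin the order changed below the first pair: SLC3A2 moved up to 90.9 ± 6.77 TPM beside SLC38A2 at 96.4 ± 7.47 TPM, with overlapping ranges, and SLC38A1 at 27.9 ± 4.18, SLC7A1 at 27.3 ± 4.06 and SLC7A6 at 26.8 ± 3.67 TPM overlapped in turn. With both drugs SLC1A5 again led at 305 ± 74.7 TPM, and SLC7A5 at 165 ± 30 TPM overlapped SLC38A2 at 112 ± 22.9 TPM. With teriflunomide all neighbours in the order overlapped, SLC1A5 being at 187, 171 and 37.1 TPM.

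The start regions of these genes were searched for the letters of a pair of elements, TGATGNAA, the core of the C/EBP-ATF response element, and CACGTG, the E-box bound by MYC and by TFEB. The search covered both strands of the RefSeq promoter windows (GRCh38.p14, mostly upstream of each start), which gave 17 windows for the 10 members, and the motifs do not overlap each other. TGATGNAA stood in windows of 5 members, SLC3A2, SLC1A5, SLC38A1, SLC1A4 and SLC7A1, against 3.62% of all 35116 windows and 4.46% of all genes. CACGTG stood in windows of 3 members, SLC7A5, SLC1A5 and SLC43A1, against 7.26% of windows and 8.77% of genes. The 10 members had 17 windows, and all 27305 genes had 35116. The motifs were chosen after the promoter table was seen, and the members with earlier results known, so these shares are a description and carry no test. The stretches below are written 5′ to 3′ on the strand of the gene, with the matched letters in capitals. They are shown because SLC7A5, SLC3A2, SLC1A5 and SLC1A4 rose with lurbinectedin, while SLC38A1 and SLC7A1 fell. With teriflunomide SLC7A5, SLC38A1 and SLC7A1 all fell. SLC38A1 and SLC7A1 hold TGATGNAA, as do SLC3A2, SLC1A5 and SLC1A4, while SLC7A5 holds only CACGTG. SLC1A5 also holds CACGTG, at -50 in another window. SLC43A1, which was not called in any comparison with the reported settings, holds CACGTG too. Positions are those of the match's first base from the start site. In SLC3A2 and SLC1A4 the match lies on the opposite strand and is printed as its reverse complement.
SLC7A5, chr16:87869585-87869682, minus strand, CACGTG at -130: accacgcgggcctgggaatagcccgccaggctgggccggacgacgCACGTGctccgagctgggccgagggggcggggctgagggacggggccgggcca
SLC3A2, chr11:62881719-62881748, plus strand, TGATGNAA at 38: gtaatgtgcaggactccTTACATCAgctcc
SLC1A5, chr19:46784893-46784922, minus strand, TGATGNAA at -97: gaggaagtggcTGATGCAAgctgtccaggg
SLC1A4, chr2:64989381-64989410, plus strand, TGATGNAA at -7: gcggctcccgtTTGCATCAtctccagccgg
SLC38A1, chr12:46266468-46266565, minus strand, TGATGNAA at -4: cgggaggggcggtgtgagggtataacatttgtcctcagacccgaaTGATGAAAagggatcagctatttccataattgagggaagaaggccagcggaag
SLC7A1, chr13:29595663-29595692, minus strand, TGATGNAA at 8: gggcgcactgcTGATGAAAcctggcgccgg
A match describes letters in a window and was not tested as a binding site. For SLC7A5 and SLC38A1 no window had the bases after its start in a GENCODE 29 transcript of the gene.

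Lurbinectedin against control measured the effect of the chemotherapeutic agent alone. The exchange pair SLC7A5 and SLC3A2, the glutamine carriers SLC1A5 and SLC38A2, and SLC1A4 rose, while SLC38A1, SLC7A1, SLC7A6 and SLC6A9 fell. The largest rise was 2.86-fold, in SLC3A2, and the largest fall was 6.26-fold, in SLC6A9. Of the 10 members, 5 were called higher and 4 lower at a Benjamini-Hochberg adjusted p under 0.05 (edgeR quasi-likelihood test), against 71.6% of all genes called, 36% higher and 35.7% lower, so the share of members called is to be read against a transcriptome in which most genes changed. The median log2 change of the members was 0.36, and that of all genes tested was 0.05.

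**Figure D1:**
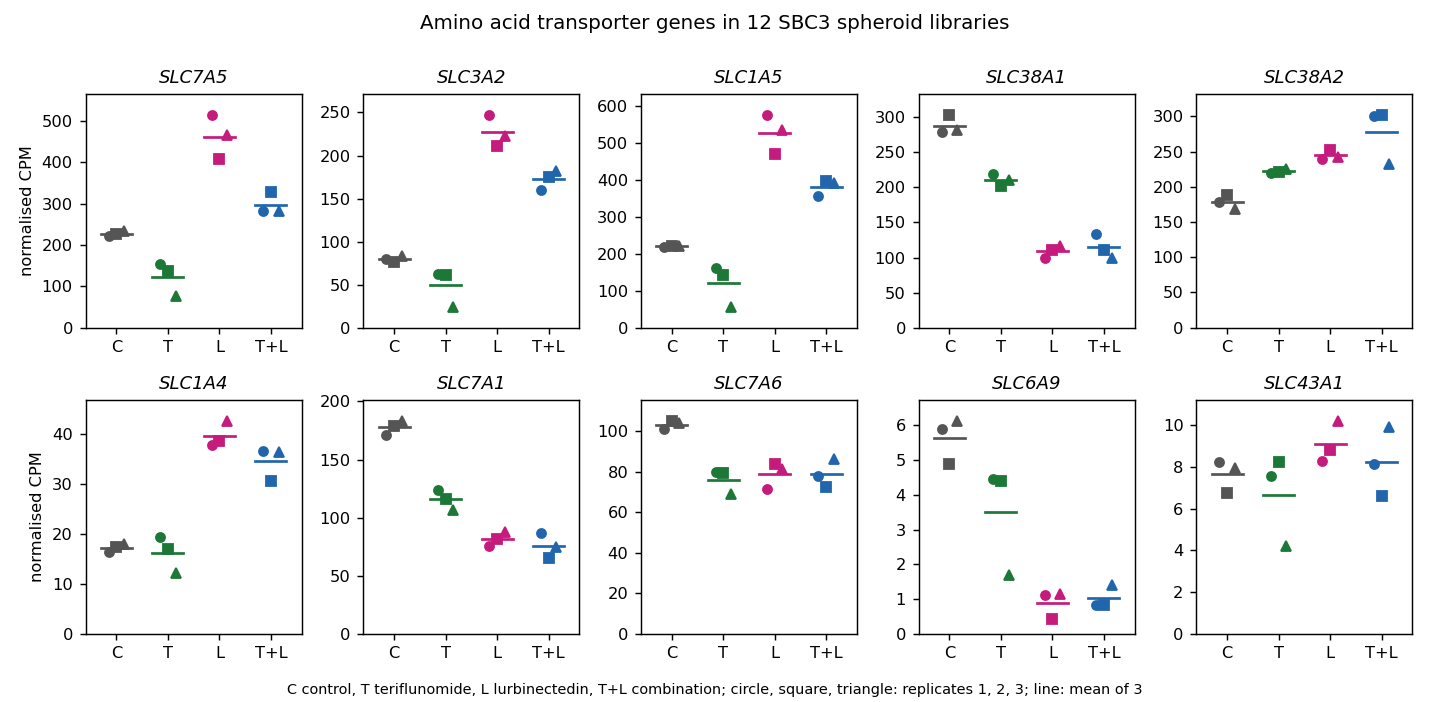
Normalised CPM (y axes, from 0) of each transporter gene in the 12 libraries, with 1 point per library and a line at the mean of 3. SLC7A5, SLC3A2, SLC1A5 and SLC1A4 are highest in the lurbinectedin libraries, SLC38A1 and SLC7A1 are highest in control, and the third teriflunomide library is the lowest of all for SLC7A5, at 77.4 CPM.

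Normalised CPM, counts scaled by the library size and the TMM factor of each library, are used from here on for a gene across libraries. SLC7A5 (ENSG00000103257.9, chromosome 16, 87830023 to 87869507, minus strand) was at 221, 227 and 233 CPM in the control libraries and at 514, 407 and 465 CPM with lurbinectedin. The lurbinectedin and control libraries did not overlap, and the log2 fold change was 1.02 (SE 0.19, edgeR adjusted p = 0.000251). Its processed copies SLC7A5P1 and SLC7A5P2 had 0 counts in all 12 libraries. SLC3A2 (ENSG00000168003.18, chromosome 11, 62856004 to 62888880, plus strand), the heavy chain that carries LAT1 to the membrane, was at 79.4, 75.8 and 83 CPM in control and at 247, 211 and 223 CPM with lurbinectedin. The groups did not overlap, with a log2 change of 1.52 (SE 0.248, edgeR adjusted p = 8.37e-05).

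The alanine, serine and cysteine carriers also rose. SLC1A5 (ENSG00000105281.12, chromosome 19, 46774883 to 46788594, minus strand) was at 219, 222 and 222 CPM in control and at 576, 471 and 535 CPM with lurbinectedin. The control libraries lay within a few CPM of each other and the treated libraries all lay above them, with a log2 change of 1.25 (SE 0.261, edgeR adjusted p = 0.000658). An uncharacterised gene on the opposite strand, ENSG00000275719, covers 23.4% of the SLC1A5 exon bases but had between 23 and 82 counts per library, and the use of strand in counting is not stated. SLC1A4 (ENSG00000115902.11, chromosome 2, 64988477 to 65023865, plus strand) was at 16.3, 17.3 and 18 CPM in control and at 37.7, 38.5 and 42.5 CPM with lurbinectedin. All 3 treated libraries lay above all 3 controls, and the fold was 2.30 (log2 1.20, SE 0.153, edgeR adjusted p = 7.69e-06).

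The SNAT genes, both on chromosome 12, moved in opposite directions in normalised CPM. SLC38A2 (ENSG00000134294.14, 46358188 to 46372773, minus strand), which encodes SNAT2, a carrier of small neutral amino acids that cells raise when starved of them, went from 178, 188 and 168 CPM to 239, 253 and 242 CPM. The groups did not overlap, and the rise was 1.38-fold (log2 0.46, SE 0.104, edgeR adjusted p = 0.00122). With library size as the only scaling, where the median over all genes was -0.18, this rise was no longer called (edgeR adjusted p = 0.092). In TPM, SLC38A2 lay lower with lurbinectedin, at 88.2, 98.2 and 103, than in control, at 113, 113 and 104. The direction of its change thus depended on the scaling. SLC38A1 (ENSG00000111371.16, 46183063 to 46270017, minus strand), which encodes SNAT1, went from 279, 303 and 282 CPM down to 99.9, 110 and 117 CPM. It was the most abundant member in control by CPM, a unit that does not correct for length, and every treated library lay far below every control library, with a log2 change of -1.40 (SE 0.111, edgeR adjusted p = 6.68e-08).

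The carriers of cationic amino acids and of glycine fell. SLC7A1 (ENSG00000139514.13, chromosome 13, 29509414 to 29595688, minus strand) was at 171, 179 and 183 CPM in control and at 75.2, 81.9 and 87.8 CPM with lurbinectedin. This was a 2.17-fold fall without overlap (log2 -1.12, SE 0.114, edgeR adjusted p = 8.21e-07). SLC7A6 (ENSG00000103064.15, chromosome 16, 68264516 to 68301823, plus strand) went from 101, 105 and 104 CPM to 71.6, 84.1 and 81.5 CPM. The groups did not overlap, but the fall of 1.3-fold was the smallest of those called (log2 -0.38, SE 0.104, edgeR adjusted p = 0.00444). SLC7A6OS, on the opposite strand, covers 44.4% of the SLC7A6 exon bases and rose (log2 0.69, SE 0.168, edgeR adjusted p = 0.0021), so counts of SLC7A6 may mix reads of both genes.

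SLC6A9 (ENSG00000196517.13, chromosome 1, 43991500 to 44031467, minus strand) was at 5.9, 4.88 and 6.12 CPM in control, from 176, 146 and 205 counts, and at 1.11, 0.43 and 1.16 CPM with lurbinectedin, from 23, 11 and 32 counts. All treated libraries lay below all controls (log2 fold change -2.65, SE 0.384, edgeR adjusted p = 2.8e-05). SLC43A1 (ENSG00000149150.9, chromosome 11, 57484534 to 57515780, minus strand) was at 8.24, 6.75 and 7.95 CPM in control and at 8.29, 8.84 and 10.2 CPM with lurbinectedin. It was the member not called, with a log2 change of 0.25 (SE 0.221, edgeR adjusted p = 0.318). In a bulk library, fewer cells that express a gene and less RNA of it per cell cannot be told apart.

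**Figure D2:**
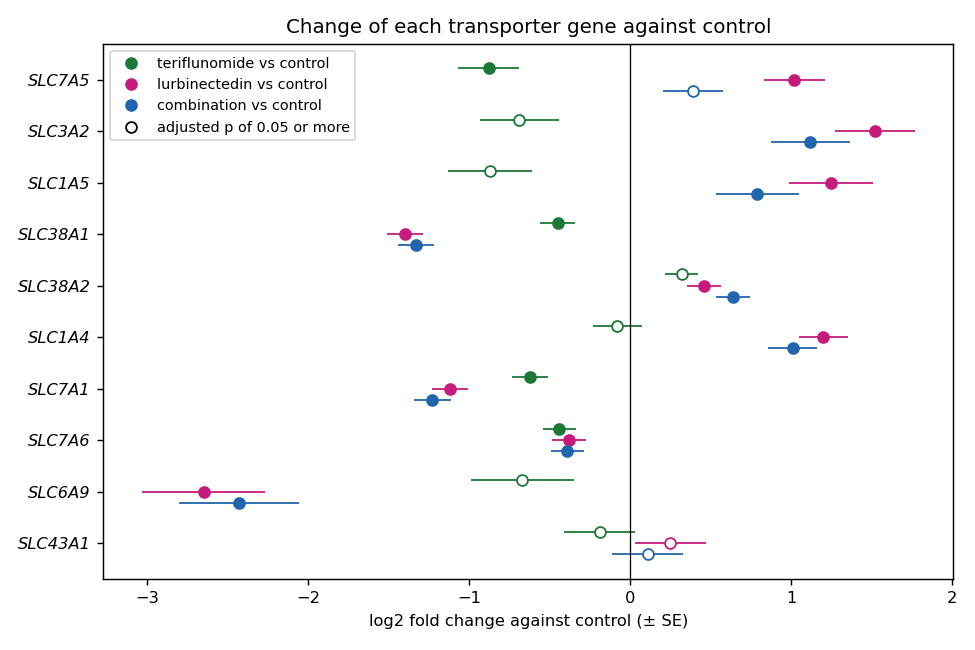
Log2 fold change against control (x axis) of each transporter gene with teriflunomide, lurbinectedin and the combination; bars are 1 SE and filled points have an edgeR adjusted p under 0.05. The lurbinectedin and combination points lie on the same side of 0 for all 10 genes, though SLC43A1 with both drugs turned to -0.04 when libraries were scaled by size alone, and SLC7A5, SLC3A2 and SLC1A5 lie below 0 with teriflunomide and above it with lurbinectedin.

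Changes with lurbinectedin varied with the genomic span of a gene, from the first to the last exon base, over the whole transcriptome. In 5 bins of equal size the median log2 change went from 0.69 in genes up to 5.26 kb through 0.62, 0.28 and -0.36 to -1.86 in genes over 82.9 kb. The members lay in 4 of the 5 bins. SLC38A1 and SLC7A1, with spans of 87 and 86.3 kb, were in the longest bin, and their falls of -1.40 and -1.12 were smaller than its median and between its quartiles of -3.12 and -0.91. SLC7A5, with a span of 39.5 kb, rose by 1.02 in a bin whose median was -0.36 and whose upper quartile was 0.26, while SLC6A9, with 40 kb, fell by 2.65 in the same bin, below its lower quartile of -0.99. SLC3A2 and SLC1A4, with 32.9 and 35.4 kb, lay above the upper quartile of 0.83 in their bin. SLC1A5 (13.7 kb) lay at 1.25 beside an upper quartile of 1.24, and SLC38A2 (14.6 kb), SLC43A1 (31.2 kb) and SLC7A6 (37.3 kb) lay within 0.2 of their bins' medians. These are descriptions of single genes among many of like span, and the part of span in the transporter changes was not tested.

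**Figure D3:**
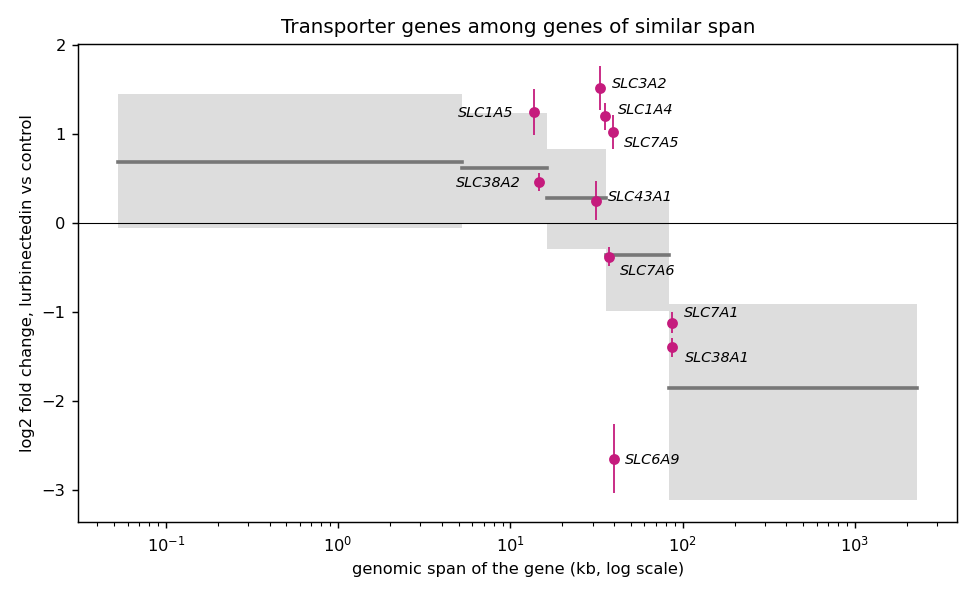
Log2 fold change with lurbinectedin (y axis, bars 1 SE) of the 10 transporter genes against genomic span (x axis, log scale); grey boxes run from the lower to the upper quartile of all genes in 5 bins of span, with a grey line at the median. SLC3A2, SLC1A4 and SLC7A5 stand above the boxes of their bins, SLC6A9 stands below, and SLC38A1 and SLC7A1 lie in the upper part of the lowest box.

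Teriflunomide against control measured the effect of the pyrimidine synthesis inhibitor alone. None of the 10 genes was called higher, and SLC7A5, SLC38A1, SLC7A1 and SLC7A6 fell by 1.36-fold to 1.84-fold. That is 0 of 10 members called higher and 4 lower (edgeR), against 6.01% of all genes called, 3.88% higher and 2.13% lower. The median log2 change of the members was -0.54, and that of all genes was 0.03. This count moved with single libraries: it was 1 without the first or the second control library, 0 without the third control library, 2 without the second teriflunomide library, 5 without the first and 6 without the third, and 0 with library size as the only scaling.

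SLC7A5 was at 155, 137 and 77.4 CPM with teriflunomide, all below the control libraries, and the third library was far below the other two. The log2 fold change was -0.88 (SE 0.19, edgeR adjusted p = 0.018), and without the third teriflunomide library it was -0.64 (edgeR adjusted p = 0.000949). SLC1A5 was at 162, 143 and 56.6 CPM and SLC3A2 at 62.5, 61.2 and 24.3 CPM, again with no library reaching the control range. Neither was called with all libraries, with log2 fold changes of -0.87 (SE 0.26, edgeR adjusted p = 0.0631) and -0.69 (SE 0.245, edgeR adjusted p = 0.11). Without the third teriflunomide library the values were nearer to 0, -0.53 and -0.36, and both were called (edgeR adjusted p = 0.00168 and 0.0165).

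SLC7A1 was at 124, 116 and 107 CPM with teriflunomide and SLC38A1 at 219, 202 and 211 CPM, so that for these genes the third library stood near the others. Both lay below the control libraries without overlap, with log2 fold changes of -0.62 (SE 0.112, edgeR adjusted p = 0.0074) and -0.45 (SE 0.109, edgeR adjusted p = 0.0294). SLC7A6, at 79.9, 79.4 and 69.2 CPM, also lay below the control range (log2 -0.44, SE 0.104, edgeR adjusted p = 0.0271). SLC38A2, at 220, 221 and 226 CPM, was the only member whose teriflunomide libraries all lay above control, and its log2 change of 0.32 was not called (SE 0.104, edgeR adjusted p = 0.081), though it was called by DESeq2. SLC6A9, at 4.46, 4.4 and 1.7 CPM, lay below control and was not called (edgeR adjusted p = 0.213). SLC1A4, at 19.4, 17 and 12.2 CPM, and SLC43A1, at 7.56, 8.26 and 4.19 CPM, overlapped control, and their log2 fold changes of -0.08 and -0.19 became 0.08 and 0.05 without the third teriflunomide library.

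The combination against control showed most of the lurbinectedin pattern. SLC3A2, SLC1A5, SLC38A2 and SLC1A4 rose and SLC38A1, SLC7A1, SLC7A6 and SLC6A9 fell. SLC7A5 was not called with both drugs. In all, 4 of 10 members were called higher and 4 lower (edgeR), against 68.4% of all genes called, 34.1% higher and 34.4% lower. The members' median log2 fold change was 0.25, and that of all genes was 0.04. This comparison and those of each drug alone share the control libraries.

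With both drugs SLC7A5 was at 283, 327 and 282 CPM, above every control library and below every lurbinectedin library. In TPM it was at 173, 131 and 189 with both drugs and at 191, 187 and 197 in control. The place of SLC7A5 against control thus depended on the scaling. Its log2 fold change against control was 0.39 (SE 0.188, edgeR adjusted p = 0.0812), and it was 0.31 (edgeR adjusted p = 0.00217) without the third teriflunomide and second combination libraries. SLC3A2 was at 160, 175 and 182 CPM and rose 2.17-fold (log2 1.12, SE 0.246, edgeR adjusted p = 0.00109). SLC1A5 was at 356, 396 and 392 CPM and rose 1.72-fold (log2 0.79, SE 0.259, edgeR adjusted p = 0.0153), a call that was lost with library size as the only scaling. For all 3 genes the combination libraries lay, in CPM, between the control and the lurbinectedin libraries with no overlap on either side. The share of all genes ordered in this way was not counted, so the order is not particular to these genes.

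SLC1A4 was at 36.6, 30.5 and 36.4 CPM with both drugs, just below the lurbinectedin range and above control (log2 1.01, SE 0.152, edgeR adjusted p = 4.7e-05). SLC38A2 was at 300, 302 and 232 CPM, where the first pair of libraries were the highest of all 12 and the third lay below the lurbinectedin libraries (log2 0.64, SE 0.104, edgeR adjusted p = 8.53e-05). SLC38A1 fell to 134, 110 and 100 CPM (log2 -1.33, SE 0.111, edgeR adjusted p = 1.41e-07) and SLC7A1 to 86.8, 65.4 and 74.4 CPM (log2 -1.23, SE 0.114, edgeR adjusted p = 3.93e-07). Both overlapped the lurbinectedin libraries and lay below all control libraries. SLC7A6, at 77.8, 72.3 and 86.1 CPM, fell by 0.39 on the log2 scale (SE 0.104, edgeR adjusted p = 0.00426). SLC6A9, at 0.833, 0.843 and 1.4 CPM from 23, 20 and 44 counts, fell by 2.43 (SE 0.37, edgeR adjusted p = 4.85e-05). SLC43A1, at 8.15, 6.62 and 9.92 CPM, overlapped control (log2 0.11, SE 0.221, edgeR adjusted p = 0.675), and its sign turned to -0.04 with library size as the only scaling.

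The combination was then compared with lurbinectedin alone, which asks what teriflunomide adds. No member passed the test, and SLC7A5, SLC3A2 and SLC1A5 were lower in all 3 combination libraries than in any lurbinectedin library. The share of all genes separated in this way was not counted. With 3 libraries against 3, an exact permutation test of such a separation gives p = 0.1 at the smallest. By edgeR 0 of 10 members and 0 of all genes (0%) were called, with 1 member, SLC7A5, and 2599 genes at an unadjusted p under 0.05, and DESeq2 also called 0 members. The log2 differences were -0.64 for SLC7A5 (SE 0.189, edgeR adjusted p = 0.172), -0.40 for SLC3A2 (SE 0.242, edgeR adjusted p = 0.447) and -0.47 for SLC1A5 (SE 0.258, edgeR adjusted p = 0.394). SLC1A4 also lay lower without overlap (log2 -0.20, SE 0.15, edgeR adjusted p = 0.547). The median of the members was -0.13 and that of all genes 0.03.

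Leaving out the libraries that stood apart changed these calls and moved the differences by less than 0.1. Without the third teriflunomide and the second combination library, SLC7A5 differed by -0.71 (edgeR adjusted p = 6.3e-05), SLC3A2 by -0.41 (edgeR adjusted p = 0.00137) and SLC1A5 by -0.49 (edgeR adjusted p = 0.000443), all called lower. How many of all genes were called in this setting was not counted. Without the second combination library alone 0 members were called. The third teriflunomide library is in neither group compared but shares the estimate of spread, and its removal alone was not examined for this comparison. With only the groups compared in the fit and all their libraries kept, SLC7A5 was called lower (log2 -0.63, edgeR adjusted p = 0.039). The cause of the gain in calls was not tested. The other 6 members had log2 differences between -0.14 and 0.21 with all libraries, and their groups overlapped. These were 0.07 for SLC38A1 (SE 0.11), 0.18 for SLC38A2 (SE 0.104), -0.11 for SLC7A1 (SE 0.113), -0.01 for SLC7A6 (SE 0.104), 0.21 for SLC6A9 (SE 0.443) and -0.14 for SLC43A1 (SE 0.222).

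The interaction, the effect of teriflunomide with lurbinectedin minus its effect without it, was not called for any member. By edgeR 0 of 10 members were called, against 0.258% of all genes, 0.036% higher and 0.222% lower, and 3 members, SLC38A1, SLC7A1 and SLC7A6, had an unadjusted p under 0.05. Their interaction terms were 0.53 (SE 0.155, edgeR adjusted p = 0.243), 0.51 (SE 0.159, edgeR adjusted p = 0.274) and 0.43 (SE 0.147, edgeR adjusted p = 0.329). The falls of these genes with teriflunomide alone, -0.45, -0.62 and -0.44, stood beside differences of 0.07, -0.11 and -0.01 when lurbinectedin was present. Without the third teriflunomide and second combination libraries the 3 terms were 0.56, 0.55 and 0.43 and were called (edgeR adjusted p = 0.0156, 0.00438 and 0.0164). The share of all genes called without these libraries was not counted. For SLC7A5, SLC3A2 and SLC1A5 the terms were 0.25 (SE 0.266), 0.29 (SE 0.344) and 0.40 (SE 0.365), and they were -0.07, -0.05 and 0.04 without those libraries. In the interaction the median of the members was 0.35 and that of all genes 0.02.

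Against teriflunomide alone the combination showed the addition of lurbinectedin. SLC7A5, SLC3A2, SLC1A5, SLC38A2 and SLC1A4 were higher and SLC38A1, SLC7A1 and SLC6A9 lower, so 5 of 10 members were called higher and 3 lower (edgeR), against 70.9% of all genes called, 35.2% higher and 35.8% lower. SLC3A2 and SLC1A5 differed most upward, 3.49-fold and 3.15-fold (log2 1.80, SE 0.251, and 1.66, SE 0.265; edgeR adjusted p = 1.92e-05 and 7e-05). SLC7A5 was 2.41-fold higher (log2 1.27, SE 0.191, edgeR adjusted p = 4.05e-05). SLC6A9 was 3.39-fold lower (log2 -1.76, SE 0.375, edgeR adjusted p = 0.000804). SLC38A2 was 1.25-fold higher (log2 0.32, SE 0.104, edgeR adjusted p = 0.0127), a call lost with library size as the only scaling, with no expression filter, with only these groups in the fit and without the first combination library. For SLC7A6 the groups overlapped and the log2 difference was 0.05 (SE 0.104, edgeR adjusted p = 0.689). Without the third teriflunomide and second combination libraries the counts were again 5 and 3, of the same genes. The members' median was 0.31 and that of all genes 0.04.

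Because light chains need the heavy chain, the balance of their transcripts was described as a ratio of counts per kilobase of exon within each library, which no scaling between libraries can change. SLC7A5 to SLC3A2 was 3.73, 4.02 and 3.77 in control, 2.79, 2.58 and 2.79 with lurbinectedin and 2.37, 2.5 and 2.08 with both drugs. These 3 groups did not overlap, the heavy chain transcript gaining on that of LAT1, and no test was run on the ratios. With teriflunomide the ratio was 3.33, 3 and 4.28, spread around the control range. SLC7A6 to SLC3A2 was 1.1 ± 0.0608 in control, 0.296 ± 0.0468 with lurbinectedin and 0.385 ± 0.033 with both drugs (SD, n = 3 each). With teriflunomide it was 1.08 and 1.09 in 2 libraries and 2.4 in the third.

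Over the 6 light chain genes SLC7A5, SLC7A6, SLC7A7, SLC7A8, SLC7A10 and SLC7A11, whose products pair with the heavy chain, SLC7A5 made up 77.1 ± 0.307% of the transcripts in control, 90.1 ± 1.74% with lurbinectedin and 85.5 ± 2.02% with both drugs (SD, n = 3 each). With teriflunomide it made up 74.7%, 72.6% and 63.2%, all below the control libraries. Among the other light chains, SLC7A11, which encodes the cystine and glutamate exchanger, fell with lurbinectedin from 3.75 ± 0.0721 to 0.365 ± 0.221 CPM (SD, n = 3 each, log2 -3.30, SE 0.334, edgeR adjusted p = 7.91e-07). SLC7A8 stood under 1 CPM in every library, as did SLC7A7. The ratio of SLC38A2 to SLC38A1 was 0.951 ± 0.0309 in control, 1.63 ± 0.0723 with teriflunomide, 3.47 ± 0.259 with lurbinectedin and 3.74 ± 0.409 with both drugs (SD, n = 3 each). Each treated group lay above control in this ratio, and only the lurbinectedin and combination libraries overlapped.

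**Figure D4:**
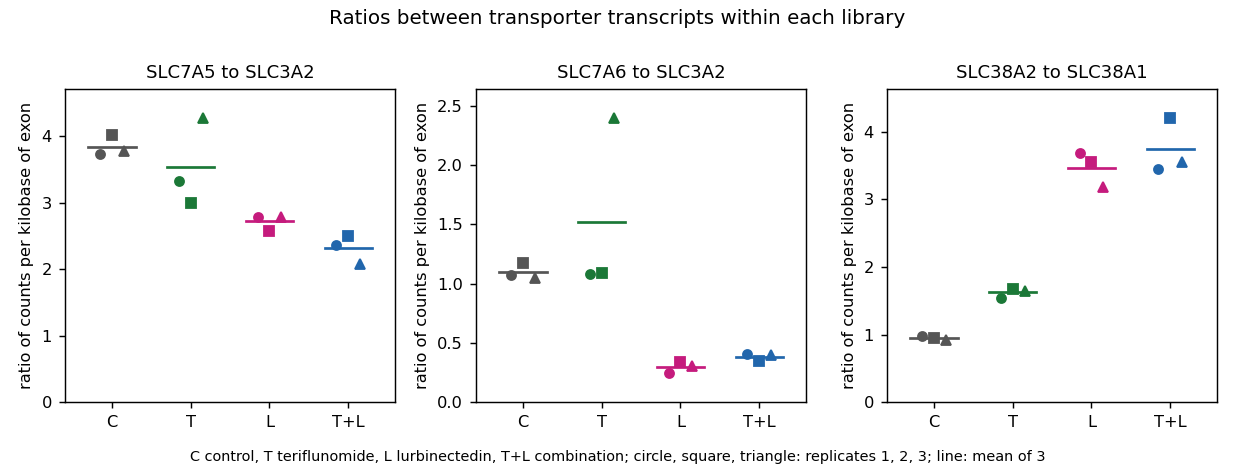
Ratios of counts per kilobase of exon (y axes, from 0) within each library for 3 pairs of transporter genes, with 1 point per library and a line at the mean of 3. SLC7A5 to SLC3A2 is lower with lurbinectedin and with both drugs than in control, SLC7A6 to SLC3A2 is at most 0.408 in the lurbinectedin and combination libraries, and SLC38A2 to SLC38A1 is above control in every treated library.

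Across the 12 libraries the members fell into sets that moved together. On log2 CPM, SLC7A5 and SLC1A5 had a Pearson r of 0.99, SLC3A2 and SLC1A5 0.99 and SLC7A5 and SLC3A2 0.97. SLC38A1 and SLC7A1 had 0.96, and SLC38A2 and SLC7A1 had -0.89. These values describe 12 libraries that share 4 treatments and carry no test. Many genes follow the same treatments: of the 16682 other genes tested, 391 had an r over 0.95 with SLC7A5, 1160 with SLC3A2, 797 with SLC1A5 and 86 with SLC7A1. The most alike to SLC7A5 were BOP1 (0.996), POLD2 (0.994) and MRTO4 (0.994), and to SLC3A2 were SMG5 (0.999), UBE2S (0.998) and STK25 (0.998). For SLC1A5 they were EIF6 (0.999), TRMT61A (0.997) and AP2M1 (0.997), and for SLC7A1 they were SOX12 (0.984), IGF2BP1 (0.982) and KDM2B (0.981).

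Other amino acid transporters mostly fell with lurbinectedin. Of 41 further transporter genes 19 passed the filter on low counts, and of these 4 were called higher and 12 lower with lurbinectedin (edgeR), with a median log2 change of -1.01 against 0.05 for all genes, and 5 higher and 13 lower with both drugs. Of all genes, 36% were called higher and 35.7% lower with lurbinectedin, and 34.1% and 34.4% with both drugs. With library size as the only scaling 3 rather than 5 were called higher with both drugs. SLC1A1, a glutamate and cysteine carrier, fell from 9.09 ± 0.831 to 0.266 ± 0.0633 CPM (log2 -5.05, SE 0.264, edgeR adjusted p = 1.21e-09). SLC7A2, a second cationic carrier, fell from 320 ± 13.8 to 152 ± 12.8 CPM (log2 -1.07, SE 0.104, edgeR adjusted p = 4.79e-07), beside the fall of -1.12 in SLC7A1. With teriflunomide 1 was called higher and 2 lower, against 3.88% and 2.13% of all genes. These counts were 0 and 1 with library size as the only scaling or with only the groups compared, and 3 and 5 without the third teriflunomide and second combination libraries. SLC38A5, which encodes the glutamine carrier SNAT5, was at 72.5, 60.7 and 40.3 CPM against 95.5 ± 1.14 CPM in control (log2 -0.72, SE 0.16, edgeR adjusted p = 0.0208), and SLC1A3 fell from 2.17 ± 0.141 to 0.793 ± 0.188 CPM (edgeR adjusted p = 0.0105). SLC38A4 rose from 0.929 ± 0.101 to 1.75 ± 0.357 CPM (edgeR adjusted p = 0.0431). All ± values are SDs of 3 libraries.

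Of 9 tested genes that use the imported glutamine, 3 were called higher with lurbinectedin, ASNS and GLS2 among them, and 3 lower, GLUD1 among them (edgeR), shares near the 36% and 35.7% of all genes. With teriflunomide 0 were called, and 2 were called higher without the third teriflunomide and second combination libraries. ASNS, the asparagine synthetase and a known ATF4 target, was low throughout, 0.273 ± 0.112 CPM in control and 1.46 ± 0.259 CPM with lurbinectedin (SD, n = 3 each, log2 2.41, SE 0.325, edgeR adjusted p = 1.37e-05). These levels rest on 11, 9 and 5 counts in control and 34, 40 and 32 with lurbinectedin. Overlap of other genes with the ASNS exons was not examined.

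Of 12 regulators of the amino acid response, 7 were called higher and 2 lower with lurbinectedin (edgeR), against 36% and 35.7% of all genes. ATF4 itself was at 210, 205 and 216 CPM in control, 185, 183 and 130 CPM with teriflunomide, 277, 252 and 270 CPM with lurbinectedin and 242, 283 and 264 CPM with both drugs. It rose with lurbinectedin by 0.34 on the log2 scale (SE 0.123, edgeR adjusted p = 0.0226) and with both drugs by 0.32 (SE 0.123, edgeR adjusted p = 0.0308), and was not called with teriflunomide (log2 -0.34, SE 0.123, edgeR adjusted p = 0.116). ATF3, a stress-induced factor of the same family, rose from 2.82 ± 0.229 to 161 ± 13.8 CPM (SD, n = 3 each, log2 5.83, SE 0.155, edgeR adjusted p = 8.38e-12). TRIB3, a target of ATF4 and DDIT3, was among the genes called lower. With teriflunomide ATF3 was called higher and ATF5 lower. The call of ATF3 was lost with only the groups compared, and 3 regulators were called higher without the third teriflunomide and second combination libraries.

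Of 31 tested genes of amino acid sensing by mTORC1, 12 were called higher and 9 lower with lurbinectedin (edgeR), near the 36% and 35.7% of all genes, and 7 rather than 12 were higher with library size as the only scaling. With teriflunomide 2, SESN1 and SESN3, were called higher, a count that was 1 with library size as the only scaling or with only the groups compared, and 4 without the third teriflunomide and second combination libraries. SESN1, which encodes a sestrin that restrains mTORC1 and is induced by p53, rose from 36.7 ± 1.19 CPM to 66.4 ± 5.23 with teriflunomide and 212 ± 6.95 with lurbinectedin (SD, n = 3 each; edgeR adjusted p = 0.00047 and 1.2e-10). RPTOR and MTOR, which encode the scaffold and the kinase of the complex, fell with lurbinectedin from 80.2 ± 3.99 to 2.61 ± 0.374 CPM and from 182 ± 5.17 to 44.7 ± 4.2 CPM (SD, n = 3 each; edgeR adjusted p = 4.25e-10 and 1.01e-08). Their spans of 422 and 156 kb put both in the bin of the longest genes. Of the MYC genes, MYC was not called in any of the comparisons with the reported settings. It was at 201 ± 5.81 CPM in control and 178 ± 10.3 CPM with lurbinectedin (log2 -0.18, SE 0.106, edgeR adjusted p = 0.144). MYCL fell with teriflunomide (log2 -0.60, SE 0.137, edgeR adjusted p = 0.0233) and rose with lurbinectedin (log2 0.33, SE 0.135, edgeR adjusted p = 0.0405). Both calls of MYCL were lost when libraries were scaled by size alone, the first also with only the groups compared and the second with DESeq2 size factors or no expression filter. Under 2 of these settings, size scaling and only the groups compared, 1 MYC gene was called lower with lurbinectedin.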

How the data were processed

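The authors deposited raw read counts per gene, 1 table for each of 12 libraries, as featureCounts writes them per the file headers. The submitters' processing notes name fastp 0.23.2, STAR 2.7.9, Subread, featureCounts and the build hg38. The annotation release, the use of strand and the treatment of multi-mapping reads are not given in the sources used here. Symbols matched 60463 of 60649 identifiers (99.7%), and positions are those of the files.

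Genes were filtered with filterByExpr on the 4 groups (16683 kept), scaled by TMM and tested with edgeR 4.0.16 in R 4.3.3 (quasi-likelihood, robust, 1 mean per group, all 12 libraries, 6 contrasts). Calls needed an adjusted p under 0.05 (Benjamini-Hochberg, over all genes of a contrast). The biological coefficient of variation was 14.5%. Standard errors come from the F statistic. The fit was tested on simulated data. DESeq2 1.42.0 was an alternative, as were other scalings and filters, a replicate block and left-out libraries. Total counts were 23206414 to 33222162 per library, which leaves genes under 1 CPM, such as SLC6A9 with lurbinectedin, with wider errors.

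The members and gene lists were chosen with earlier results of these data known, and the promoter motifs after the promoter table was seen. All members are named, and at most 3 called genes of each list with the smallest adjusted p, besides light chains, overlapping or copied genes and, chosen after their values were seen, ATF4, TRIB3 and MYC. A few values and a sequence are not reported here.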

Additional observations from a re-analysis of the deposited data

How the results depend on the processing

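Each of 940 values of a member under an alternative was compared with its value as reported: 858 kept direction and call, 26 lost the call, 25 gained it and 31 changed sign. With lurbinectedin against control 138 of 140 kept both. The count of members called lower with teriflunomide, 4 as reported, was 0 with library size as the only scaling, 7 with no expression filter, 2 with only the groups compared in the fit and 0 to 6 with libraries left out. Members called higher with teriflunomide went from 0 to 1 by DESeq2, and ranged from 0 to 1 with libraries left out. Members called lower with both drugs against lurbinectedin went from 0 to 2 with no expression filter and to 1 with only the groups compared, and ranged from 0 to 3 with libraries left out. Interaction calls upward ranged from 0 to 3 with libraries left out. The cause was not tested.

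With the replicate block, 2 members were called lower with teriflunomide, and no other count of member calls moved by over 1.5 times. Of the other gene lists with teriflunomide, further transporters called higher went from 1 to 0, response regulators lower from 1 to 0, mTORC1 sensing higher from 2 to 1 and MYC genes lower from 1 to 0, and MYC genes higher with lurbinectedin or with both drugs from 1 to 0. The numbers share only a name: of 18 same-numbered pairs, correlations of deviations ran from -0.4 to 0.14, 1 was over 0.1, and 2 of 12 libraries correlated best with their own number.

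None of the values that changed sign was called. For both drugs against lurbinectedin, SLC7A6 was 0.01 with DESeq2 size factors, 0.07 with library size, 0.01 with no filter, 0.00 with only the groups compared, 0.01 by DESeq2 and -0.08 to 0.05 with libraries left out, SLC38A1 -0.04 to 0.16 and SLC6A9 -0.12 to 0.47. Against teriflunomide, SLC7A6 was -0.04 with library size and -0.02 to 0.11 with libraries left out. Against control, SLC43A1 with both drugs was -0.04 with library size and -0.05 to 0.24 with libraries left out, and with teriflunomide -0.37 to 0.05, where SLC1A4 was -0.23 to 0.08. Interaction terms with libraries left out were -0.07 to 0.45 for SLC7A5, -0.05 to 0.49 for SLC3A2, -0.27 to 0.04 for SLC1A4 (0.02 with library size) and -0.18 to 0.23 for SLC43A1. Library size as the only scaling moved the median of all genes to -0.18 for lurbinectedin, -0.13 for both drugs and 0.16 for the interaction.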
